A study of Mus musculus with 36 samples.

Results

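The genes described here are 35 genes of endoplasmic reticulum (ER) stress and protein folding, measured in mouse distal colon on 36 Affymetrix arrays. They were chosen by name, and each is represented by the probe set that the platform annotation gives to that gene alone; where a gene had several such probe sets, the one with the highest mean over the 36 arrays was used. All 35 were measured, out of 19938 genes named on the array. They were sorted by role into 15 chaperones and folding enzymes, 8 genes of ER-associated degradation, 3 translocon genes, 3 sensors and transcription factors, and 6 genes of the PERK arm. Of the 35 genes, 32 had 1 probe set. The others were Pdia4, Dnajc3 and Sec61b.

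Each array held RNA of 1 animal. The groups were 8 animals given siTNF-OMe-P, an siRNA against Tnf carrying O-methyl-propanediol nucleotides, 6 given siTNF-OMe, with O-methyl nucleotides, 6 given the unmodified siTNF, 7 given a scrambled siRNA and 9 labelled Control. Tnf encodes the cytokine tumour necrosis factor, and the siRNAs were given intrarectally. Every animal, Control included, is labelled as treated with 5% dextran sulfate sodium (DSS), a polymer that injures the colon epithelium, but the design text names the 4 siRNA-dosed groups alone, which leaves it unsettled what Control animals were given, and Control is used as a name. Strain, age and sex were not found in the labels. Myeloperoxidase (MPO) activity, an enzyme activity of neutrophils measured on the same animals, had medians of 0.407, 0.514, 0.206, 0.393 and 0.0380 U per mg in siTNF-OMe-P, siTNF-OMe, siTNF, scrambled and Control. All values below are log2 probe set values, and all differences are log2 differences.

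Secreted and membrane proteins are threaded into the ER through the translocon, folded there by chaperones, and, when misfolded, pulled back to the cytosol for destruction by the proteasome. When unfolded protein builds up, the sensors IRE1 (Ern1), ATF6 and PERK (Eif2ak3) start the unfolded protein response. IRE1 splices the Xbp1 transcript, ATF6 is cut into a transcription factor, and both raise chaperone and degradation genes; PERK slows translation and raises Atf4, which drives amino acid synthesis genes and Ddit3 (CHOP). In the intestine this response is best known from goblet, Paneth and plasma cells, which secrete heavily, and mice lacking Xbp1 in the intestinal epithelium develop inflammation.

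The 36 arrays correlated with each other at 0.852 or more. Colon epithelial markers were bright: the mean of 12 such genes ran from 11.46 to 12.13 over all arrays, while 8 squamous markers, which colon epithelium lacks, ran from 6.92 to 10.46, with the higher values in siTNF-OMe-P, siTNF-OMe and siTNF. The arrays differed in their spread. The standard deviation (SD) of all values on an array ran from 1.55 to 1.89, and it was under 1.7 in 8 arrays, of which 2 were siTNF-OMe-P, 0 siTNF-OMe, 1 siTNF, 1 scrambled and 4 Control (replicates 4, 5, 6 and 8). These narrow arrays read bright genes low, so counts of calls over Control are also given without them. RNA quality values were not found in the labels. RNA was taken from whole tissue, so fewer cells of a type and less RNA per cell cannot be told apart.

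The chaperones gave more of the genes above Control than any other role, being also the longest list. By share, 2, 1, 3 and 2 of the 3 translocon genes rose in the 4 comparisons named next. Of the 6 PERK arm genes 3, 2, 3 and 1 did. In siTNF-OMe-P, siTNF-OMe, siTNF and scrambled colons 8, 9, 8 and 9 of the 15 chaperones rose over Control and 0 fell, and all 15 differences were above 0 in each of the 4 comparisons. The median chaperone difference was 0.43, 0.46, 0.48 and 0.46 in that order. Over Control 0 of the 8 degradation genes passed the test in either direction, with medians of 0.18, 0.24, 0.31 and 0.22. Over all 35 genes, 14, 13, 16 and 13 rose and 0 fell, at a threshold of adjusted p under 0.05 (limma, Benjamini-Hochberg over all probe sets). Over all probe sets, 9.35, 9.01, 9.09 and 7.27% rose and 6.58, 5.81, 4.71 and 4.45% fell. The 4 comparisons share the same 9 Control arrays, so they are not independent of each other. In the test of any difference among the 5 groups, 13 of the 35 genes passed, against 13.7% of all probe sets. They were 8 of 15 chaperones, 0 of 8 degradation genes and 2 of 3 translocon genes. Of the 3 sensors and transcription factors 1 passed, the transcription factor gene Xbp1. Of the 6 PERK arm genes 2 passed (Asns and Ppp1r15a).

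**Figure D1:**
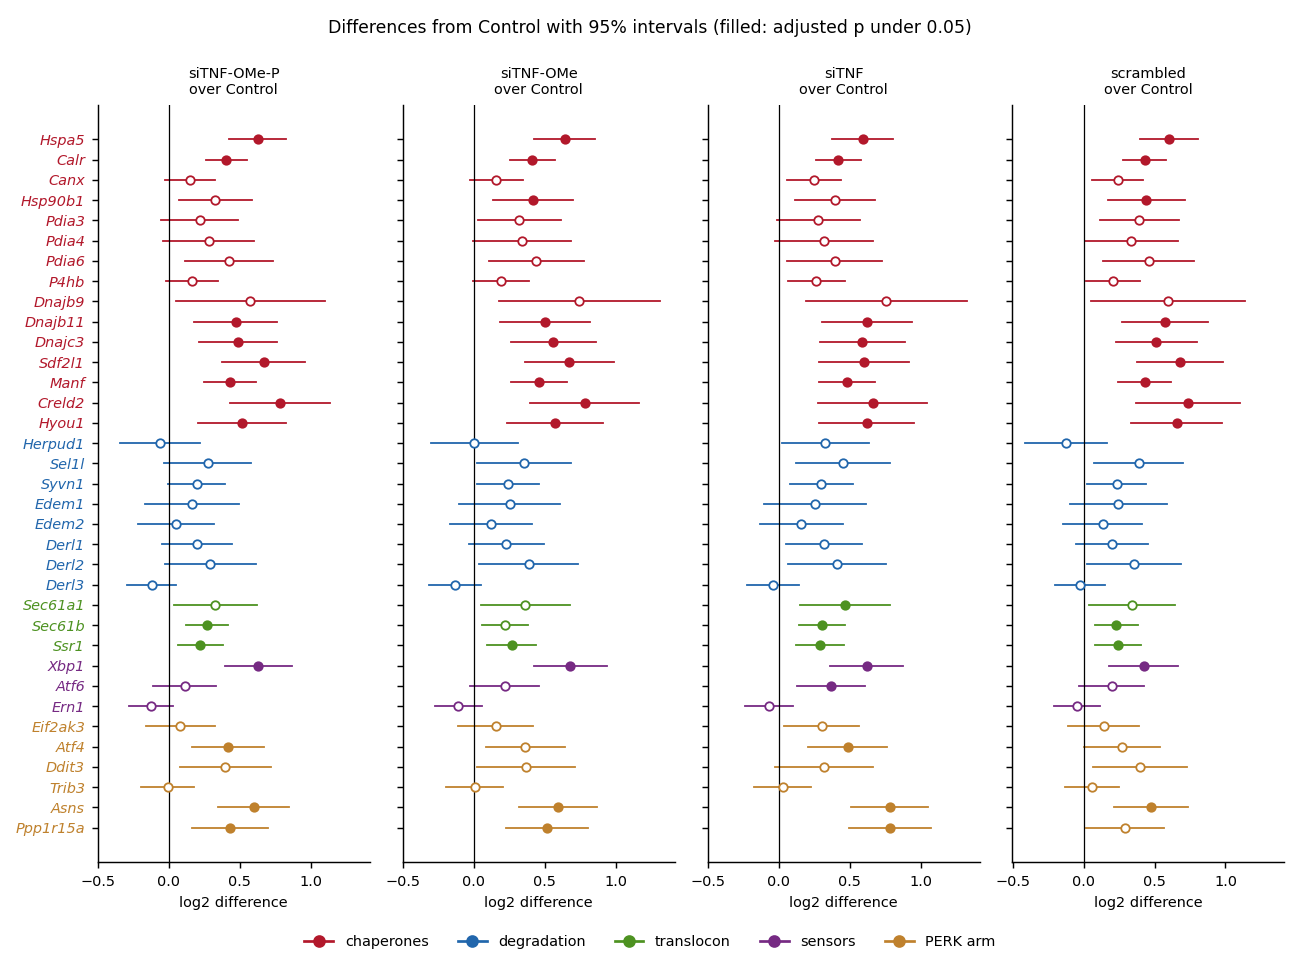
Log2 differences of the 35 genes from Control (horizontal axis, 1 panel per siRNA group), with 95% intervals as lines, coloured by role; filled points passed at adjusted p under 0.05. All 15 chaperones lie right of 0 in every panel, with 8, 9, 8 and 9 filled, while none of the 8 degradation genes is filled.

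Hspa5 encodes BiP, the main ER Hsp70 chaperone, which also holds the 3 sensors inactive. Its values ran from 12.40 through a median of 12.76 to 12.90 in siTNF-OMe-P, 12.47, 12.69 and 12.98 in siTNF-OMe, 12.37, 12.75 and 12.96 in siTNF, 12.51, 12.64 and 12.93 in scrambled, and 11.62, 12.18 and 12.39 in Control. Every siTNF-OMe-P, siTNF-OMe and scrambled array lay above every Control array, and siTNF overlapped Control with its lowest array. Hspa5 rose by 0.62 ± 0.10 (SE), 0.64 ± 0.11, 0.59 ± 0.11 and 0.60 ± 0.10 in siTNF-OMe-P, siTNF-OMe, siTNF and scrambled over Control (limma adjusted p = 1.44e-05, 3.54e-05, 1.39e-04 and 6.95e-05), which is 1.54-, 1.56-, 1.51- and 1.52-fold. It had the highest F of the 35 genes over the 5 groups, at 15.9 (limma adjusted p = 1.16e-05).

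Creld2, an ER stress-inducible protein with disulfide isomerase activity, had the largest rise of the chaperones in each of the 4 comparisons among those that passed the test. Its values were 10.26, 10.58 and 10.86 (lowest, median and highest) in siTNF-OMe-P, 10.17, 10.54 and 11.06 in siTNF-OMe, 9.40, 10.67 and 11.17 in siTNF, 10.34, 10.40 and 10.92 in scrambled, and 9.10, 9.93 and 10.24 in Control. The siTNF-OMe-P and scrambled arrays did not overlap Control, and 1 siTNF array, the narrow replicate 3, sat near the bottom of the Control range. The differences were 0.78 ± 0.17, 0.78 ± 0.19, 0.66 ± 0.19 and 0.73 ± 0.18 in siTNF-OMe-P, siTNF-OMe, siTNF and scrambled over Control (limma adjusted p = 0.00125, 0.00310, 0.0141 and 0.00484). Without siTNF replicate 5 the siTNF difference was 0.51 and missed the threshold.

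Sdf2l1, which keeps BiP and its J-domain partners in a complex, read 10.19, 10.50 and 10.68 in siTNF-OMe-P, 10.27, 10.40 and 10.74 in siTNF-OMe, 9.42, 10.59 and 10.80 in siTNF, 10.33, 10.44 and 10.66 in scrambled, and 9.19, 9.93 and 10.18 in Control. Of the 4 groups siTNF alone overlapped Control, through replicate 3. Sdf2l1 rose by 0.67 ± 0.14, 0.67 ± 0.15, 0.60 ± 0.15 and 0.68 ± 0.15 (limma adjusted p = 8.24e-04, 0.00191, 0.00629 and 0.00148).

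Hyou1, an Hsp110-type nucleotide exchange factor for BiP that is also induced by low oxygen, read 10.04, 10.45 and 10.69 in siTNF-OMe-P, 9.98, 10.48 and 10.85 in siTNF-OMe, 9.89, 10.77 and 11.11 in siTNF, 10.41, 10.50 and 10.86 in scrambled, and 9.35, 9.96 and 10.49 in Control. All 4 groups overlapped Control, whose highest array lay inside each of their ranges. Hyou1 rose by 0.51 ± 0.15, 0.57 ± 0.16, 0.62 ± 0.17 and 0.66 ± 0.16 (limma adjusted p = 0.0163, 0.0140, 0.00828 and 0.00393). The call was lost without siTNF-OMe-P replicate 3 (0.44) and without siTNF-OMe replicate 6 (0.51), and without the 8 narrow arrays Hyou1 passed in 1 comparison, scrambled over Control.

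Dnajb11 (ERdj3), a J-domain cochaperone that hands unfolded proteins to BiP, read 10.36, 10.58 and 10.82 in siTNF-OMe-P, 10.42, 10.60 and 11.00 in siTNF-OMe, 10.07, 10.87 and 11.17 in siTNF, 10.58, 10.69 and 10.88 in scrambled, and 9.47, 10.32 and 10.58 in Control. The scrambled arrays lay just above the Control arrays and the other groups overlapped them. Dnajb11 rose by 0.47 ± 0.14, 0.50 ± 0.16, 0.62 ± 0.16 and 0.57 ± 0.15 (limma adjusted p = 0.0202, 0.0243, 0.00506 and 0.00809), and in siTNF-OMe it missed the threshold without Control replicate 4, siTNF-OMe replicate 4 or siTNF-OMe replicate 6 (0.43 to 0.49). Without the 8 narrow arrays Dnajb11 passed in 1 comparison, siTNF over Control (0.45 ± 0.11).

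Calr, Manf and Dnajc3 passed in all 4 comparisons as well. Calr, the calcium-binding lectin chaperone of glycoproteins, rose by 0.40 ± 0.07, 0.41 ± 0.08, 0.42 ± 0.08 and 0.43 ± 0.07 in siTNF-OMe-P, siTNF-OMe, siTNF and scrambled over Control, and its scrambled arrays, at 11.99 to 12.23, did not overlap the Control arrays, at 11.25 to 11.91. Manf, a secreted ER stress protein that protects cells, rose by 0.43 ± 0.09, 0.46 ± 0.10, 0.48 ± 0.10 and 0.43 ± 0.09, with scrambled at 11.23 to 11.58 and Control at 10.45 to 11.11. Dnajc3 (p58IPK), a BiP cochaperone that also restrains PERK, rose by 0.49 ± 0.14, 0.56 ± 0.15, 0.59 ± 0.15 and 0.51 ± 0.14, and without the 8 narrow arrays it passed in all but scrambled over Control. Limma adjusted p values for these 3 genes ran no higher than 0.0120.

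Hsp90b1 (GRP94), the ER Hsp90, rose in siTNF-OMe (0.42 ± 0.14, limma adjusted p = 0.0358) and in scrambled (0.44 ± 0.13, adjusted p = 0.0224). In siTNF-OMe-P its difference was 0.33 ± 0.13 (adjusted p = 0.0823) and in siTNF 0.40 ± 0.14 (adjusted p = 0.0506). The siTNF-OMe call was lost without any of 8 arrays, Control replicates 4, 5, 6 and 8 and siTNF-OMe replicates 3, 4, 5 and 6 (0.31 to 0.43), and the scrambled call without Control replicate 8 or scrambled replicate 2 (0.36 to 0.38). Without the 8 narrow arrays Hsp90b1 passed in 0 of the 4 comparisons.

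The remaining 6 chaperones passed in no comparison with Control. In scrambled over Control the protein disulfide isomerases Pdia3, Pdia4, Pdia6 and P4hb differed by 0.39 ± 0.14, 0.34 ± 0.16, 0.46 ± 0.16 and 0.21 ± 0.09, the lectin chaperone Canx by 0.24 ± 0.09 and the BiP cochaperone Dnajb9 (ERdj4) by 0.59 ± 0.27. Their limma adjusted p values ran from 0.0539 for Pdia6 to 0.229 for Pdia4. Dnajb9 had a difference as large as that of Hspa5 and an SE more than 2 times as large. Canx passed without Control replicate 2, 7 or 9 (0.27 to 0.29), Pdia3 without any of 5 arrays (0.39 to 0.45: Control 1, 3 and 7, siTNF 3, siTNF-OMe-P 2) and Pdia6 without any of 7 arrays (0.46 to 0.51: Control 1, 2, 3, 7 and 9, siTNF 3 and 5). With array SD as a term in the fit, Dnajb9 rose in all 4 comparisons with Control and Pdia6 in 3. Pdia3 and P4hb then rose in 2 each and Canx in 1, while Pdia4 passed in none.

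**Figure D2:**
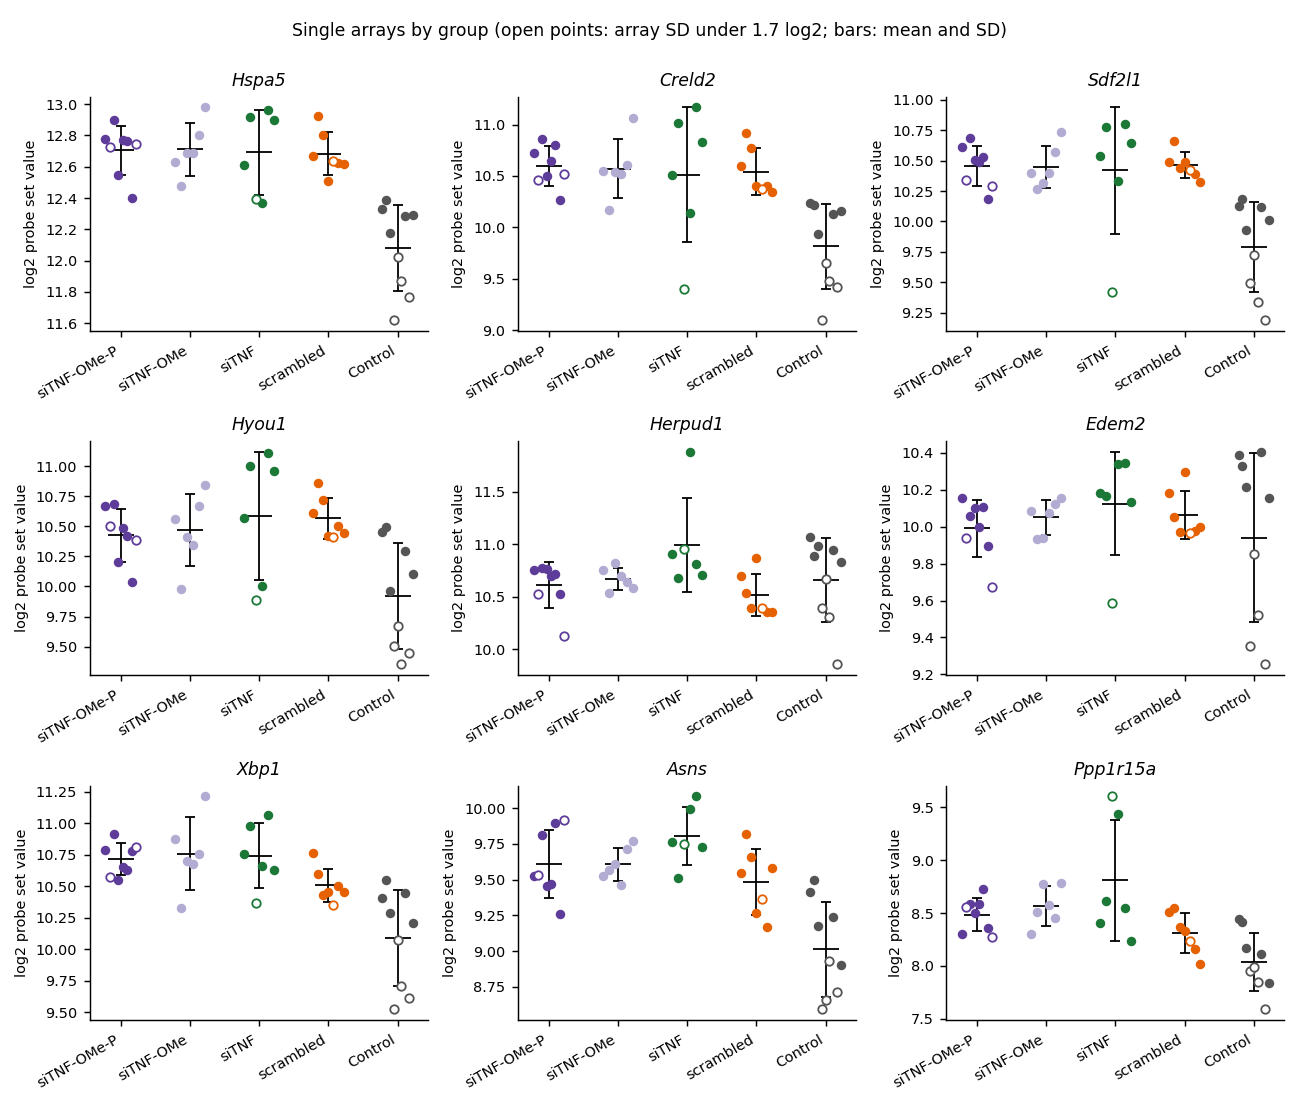
Log2 probe set values (vertical axes) of 9 genes on single arrays by group, with the mean and SD as bars and narrow arrays (SD under 1.7) as open points. Hspa5 in siTNF-OMe-P, siTNF-OMe and scrambled lies above all 9 Control arrays, whereas Edem2 and Herpud1 overlap Control in every group and the 4 narrow Control arrays lie under the other 5 Control arrays in each panel but those of Asns and Ppp1r15a.

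The promoters of several of these chaperones hold the ER stress element, the sequence through which ATF6 and the partner factor NF-Y act. It was searched as CCAAT, any 9 bases and CCACG on both strands, in windows from 250 bases upstream to 50 bases downstream of the start site (RefSeq, GRCm38.p6), which were at hand for 30 of the 35 genes. The element was present in 9 of 30 (30%), against 37 of 27025 genes (0.137%) in the whole table. By role these were 7 of 13 chaperones, 2 of 7 degradation genes and 0 of 2 translocon genes. The sensors and transcription factors had it in 0 of 2 and the PERK arm genes in 0 of 6. The sites are shown because they lay in chaperone and degradation genes and in none of the other roles; capitals mark CCAAT and CCACG, each is read 5′ to 3′ on the strand named, and Hsp90b1 has 2.
Hspa5, chr2:34772025-34772043, + strand: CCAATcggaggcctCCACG
Calr, chr8:84847075-84847093, + strand: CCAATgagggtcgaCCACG
Canx, chr11:50325800-50325818, - strand: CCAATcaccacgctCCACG
Hsp90b1, chr10:86705638-86705656, - strand: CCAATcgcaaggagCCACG
Hsp90b1, chr10:86705533-86705551, + strand: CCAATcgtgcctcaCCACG
Pdia6, chr12:17266491-17266509, + strand: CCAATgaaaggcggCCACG
Dnajc3, chr14:118937827-118937845, + strand: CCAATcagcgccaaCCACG
Creld2, chr15:88819520-88819538, - strand: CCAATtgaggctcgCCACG
Syvn1, chr19:6046532-6046550, + strand: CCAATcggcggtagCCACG
Derl3, chr10:75893242-75893260, - strand: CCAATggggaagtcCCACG

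The element of Hspa5 began 65 bases upstream of the start site, as the 170 bases before the start show (chr2:34771920-34772089, + strand, the element in capitals).
Hspa5 promoter: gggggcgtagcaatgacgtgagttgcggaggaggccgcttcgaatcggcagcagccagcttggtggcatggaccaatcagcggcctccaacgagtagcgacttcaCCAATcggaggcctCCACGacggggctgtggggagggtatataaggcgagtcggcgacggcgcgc
Of the 9 genes with the element, 5 rose in scrambled over Control (Hspa5, Calr, Hsp90b1, Dnajc3 and Creld2), and Canx, Pdia6, Syvn1 and Derl3 did not pass. Of 12 other measured genes with it, 3 rose (Spats2l by 0.63, Acacb by 0.46 and Adcy3 by 0.33) and 0 fell. Over all probe sets 7.27% rose in that comparison, and 18.5% of the bright ones with a mean of at least 10. The 5 were all chaperones, of which 9 of 15 rose there with or without the element. Whether the element goes with a rise was not tested. Sdf2l1 and Dnajb11, which rose as well, had no match to the full element in their windows. Manf, Hyou1, Derl1, Sec61a1 and Atf6 had no window here and were not searched. The shorter sequence CCACG, which the full element contains, was in 24 of 30 windows (80%) against 35.5% of all genes. The XBP1-type sequence was searched in the form TGACGTGG alone, which was in 0 of 30 against 0.714%. Forms with another last base were not searched, and the Hspa5 stretch above holds TGACGTGA. These are matches of letters, not measured binding.

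Of the 8 degradation genes 0 passed over Control, where 7.27 to 9.35% of all probe sets rose, so a count of 0 is near that share. The degradation genes were not tested against the chaperones. With array SD as a term in the fit, Sel1l and Derl2 rose in all 4 comparisons with Control and Syvn1 in 1. Herpud1, a membrane organiser of the degradation complex and a target of all 3 arms, read 10.13, 10.71 and 10.77 in siTNF-OMe-P, 10.54, 10.67 and 10.82 in siTNF-OMe, 10.68, 10.86 and 11.88 in siTNF, 10.35, 10.39 and 10.87 in scrambled, and 9.86, 10.83 and 11.07 in Control. All 4 groups overlapped Control, and siTNF replicate 4 was 0.81 above the highest Control array. The differences from Control were -0.06 ± 0.14, 0.00 ± 0.15, 0.33 ± 0.15 and -0.12 ± 0.14, with limma adjusted p values of 0.883, 0.991, 0.168 and 0.731.

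In scrambled over Control, Sel1l and Syvn1 (HRD1), the adaptor and the ubiquitin ligase of the central degradation complex, differed by 0.39 ± 0.16 and 0.23 ± 0.10. The lectins Edem1 and Edem2, which mark glycoproteins for disposal, differed by 0.24 ± 0.17 and 0.14 ± 0.14. Derl1, Derl2 and Derl3, derlins of the export channel, differed by 0.20 ± 0.12, 0.35 ± 0.16 and -0.03 ± 0.09. None of the 8 passed (limma adjusted p from 0.117 for Sel1l to 0.926 for Derl3), and Sel1l passed without Control replicate 7 (0.46). The 95% intervals of these 8 differences reach 0.70 at the top (Sel1l), so rises of the size seen for Hspa5 lie inside some of them. Derl3 was dim, with a mean of 7.62 over the 36 arrays, under the median level of the array.

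The 3 translocon genes had median differences of 0.27, 0.27, 0.31 and 0.24 in siTNF-OMe-P, siTNF-OMe, siTNF and scrambled over Control. Sec61b, the beta subunit of the Sec61 channel, read 11.70, 11.82 and 12.01 in siTNF-OMe-P, 11.69, 11.76 and 11.98 in siTNF-OMe, 11.68, 11.90 and 12.16 in siTNF, 11.74, 11.82 and 11.85 in scrambled, and 11.20, 11.63 and 11.84 in Control. It rose by 0.27 ± 0.07, 0.31 ± 0.08 and 0.23 ± 0.08 in siTNF-OMe-P, siTNF and scrambled (limma adjusted p = 0.00777, 0.00649 and 0.0410), and differed by 0.22 ± 0.08 in siTNF-OMe (adjusted p = 0.0565). Ssr1, a subunit of the translocon-associated protein complex, rose in all 4 by 0.22 ± 0.08, 0.27 ± 0.08, 0.29 ± 0.08 and 0.24 ± 0.08 (limma adjusted p = 0.0477, 0.0262, 0.0156 and 0.0428). Its values were 9.35, 9.47 and 9.65 in siTNF-OMe-P, 9.42, 9.51 and 9.62 in siTNF-OMe, 9.36, 9.57 and 9.67 in siTNF, 9.40, 9.47 and 9.57 in scrambled, and 8.82, 9.37 and 9.51 in Control, so that every group overlapped Control. Sec61a1, the channel itself, rose in siTNF (0.47 ± 0.16, limma adjusted p = 0.0399), where its values were 11.08, 11.41 and 11.62 against 9.94, 11.17 and 11.40 in Control. In siTNF-OMe-P, siTNF-OMe and scrambled it differed from Control by 0.33 ± 0.14, 0.36 ± 0.16 and 0.34 ± 0.15 without passing. Leaving out 1 array ended many of these calls: any of 10 arrays each for Sec61b (0.17 to 0.24) and Ssr1 (0.19 to 0.25) in scrambled, Control replicates 4, 5, 6 and 8 among them, 26 arrays for Ssr1 in siTNF-OMe-P (0.17 to 0.23), 4 in siTNF-OMe (0.23 to 0.26), 2 in siTNF (0.26), and 6 for Sec61a1 in siTNF (0.35 to 0.44). Without the 8 narrow arrays Ssr1 and Sec61a1 passed in 0 of the 4 comparisons (Ssr1 differed by 0.07, 0.08, 0.16 and 0.07), and Sec61b passed in siTNF alone (0.21 ± 0.06).

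Among the sensors and transcription factors, Xbp1, the transcription factor gene whose message IRE1 splices, rose in all 4 comparisons. Its values were 10.55, 10.72 and 10.91 in siTNF-OMe-P, 10.32, 10.73 and 11.21 in siTNF-OMe, 10.36, 10.71 and 11.07 in siTNF, 10.35, 10.45 and 10.76 in scrambled, and 9.53, 10.21 and 10.55 in Control. The siTNF-OMe-P arrays lay above all Control arrays, narrowly, and the other groups overlapped. Xbp1 rose by 0.63 ± 0.12, 0.68 ± 0.13, 0.62 ± 0.13 and 0.42 ± 0.12 (limma adjusted p = 1.42e-04, 1.55e-04, 6.42e-04 and 0.0162). The scrambled call was lost without scrambled replicate 2 (0.39). The array measures total Xbp1 message and does not tell spliced from unspliced.

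The sensors Atf6 and Ern1 differed less from Control than Xbp1 did. Atf6 read 9.78, 10.00 and 10.23 in siTNF against 8.96, 9.76 and 10.14 in Control, and rose there by 0.37 ± 0.12 (limma adjusted p = 0.0325), a call lost without any of 7 arrays (0.30 to 0.36: Control 4, 5, 6 and 8, siTNF 3, 4 and 5) and without the 8 narrow arrays together. In siTNF-OMe-P, siTNF-OMe and scrambled Atf6 differed by 0.11 ± 0.11, 0.22 ± 0.12 and 0.20 ± 0.11. Ern1 differed by -0.13, -0.11, -0.07 and -0.05 in siTNF-OMe-P, siTNF-OMe, siTNF and scrambled, and passed in none. Without the narrow arrays Ern1 fell by 0.24 ± 0.07 in both siTNF-OMe-P and siTNF-OMe over Control (limma adjusted p = 0.0120 and 0.00899), and with array SD as a term in the fit it fell in the same 2 comparisons.

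In the PERK arm 3, 2, 3 and 1 of 6 genes rose in siTNF-OMe-P, siTNF-OMe, siTNF and scrambled over Control and 0 fell, with medians of 0.41, 0.37, 0.40 and 0.28. Asns, asparagine synthetase and a target of ATF4, read 9.26, 9.53 and 9.92 in siTNF-OMe-P, 9.46, 9.59 and 9.77 in siTNF-OMe, 9.51, 9.76 and 10.08 in siTNF, 9.17, 9.54 and 9.82 in scrambled, and 8.60, 8.93 and 9.50 in Control. The siTNF arrays lay above all Control arrays. Asns rose by 0.60 ± 0.12, 0.59 ± 0.13, 0.78 ± 0.13 and 0.48 ± 0.13 (limma adjusted p = 5.75e-04, 0.00162, 7.76e-05 and 0.0103), and without the 8 narrow arrays it passed in siTNF-OMe and siTNF.

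Ppp1r15a (GADD34), which lets translation resume after PERK signalling, read 8.27, 8.53 and 8.73 in siTNF-OMe-P, 8.31, 8.54 and 8.79 in siTNF-OMe, 8.24, 8.58 and 9.60 in siTNF, 8.02, 8.33 and 8.55 in scrambled, and 7.59, 7.99 and 8.44 in Control. Every group overlapped Control, and 2 siTNF arrays, replicates 3 and 4, stood above the rest at 9.60 and 9.43. Ppp1r15a rose by 0.43 ± 0.13, 0.52 ± 0.14 and 0.78 ± 0.14 in siTNF-OMe-P, siTNF-OMe and siTNF (limma adjusted p = 0.0200, 0.00967 and 1.61e-04) and differed by 0.29 ± 0.14 in scrambled (adjusted p = 0.205). Without siTNF-OMe replicate 6 the siTNF-OMe difference was 0.42 and missed the threshold, and without the 8 narrow arrays Ppp1r15a passed in siTNF alone.

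Atf4, the central transcription factor of this arm, read 10.72, 10.95 and 11.05 in siTNF-OMe-P, 10.72, 10.97 and 11.23 in siTNF, and 9.72, 10.71 and 10.92 in Control, all overlapping. It rose by 0.42 ± 0.13 in siTNF-OMe-P and 0.49 ± 0.14 in siTNF (limma adjusted p = 0.0192 and 0.0133), and the siTNF call was lost without siTNF replicate 4 (0.42). Without the 8 narrow arrays Atf4 passed in 0 of the 4 comparisons. In siTNF-OMe and scrambled Atf4 differed by 0.36 ± 0.14 and 0.27 ± 0.13 (adjusted p = 0.0764 and 0.230). Ddit3, the CHOP gene linked to cell death, differed by 0.40 ± 0.16, 0.37 ± 0.17, 0.32 ± 0.17 and 0.40 ± 0.16 and passed in none of the 4. Trib3, a pseudokinase gene and a CHOP and ATF4 target, was dim, at a mean of 7.50, and differed by 0.06 ± 0.09 in scrambled. Eif2ak3, PERK itself, differed by 0.14 ± 0.12 in scrambled. With array SD as a term in the fit, Ddit3 and Atf4 rose in 3 comparisons with Control each and Eif2ak3 in 1.

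The C/EBP-ATF response element, through which ATF4 acts, was searched as TGATGNAAN on both strands of the same windows. It was in 3 of 30 genes (10%) against 4.5% of all genes, and 2 of the 3 belong to the PERK arm. Each is shown with 8 bases on either side, the match in capitals, and Asns is the 1 of the 3 that rose in all 4 comparisons with Control.
Asns: cagccacaTGATGAAACttcccgca
Trib3: cgcccggcTGATGTAAAcctgagct
Herpud1: gtgcgggcTGATGCAACccgccgtg

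Over the 5 roles, 11 of the 35 genes rose in all 4 comparisons with Control: 8 chaperones (Hspa5, Calr, Dnajb11, Dnajc3, Sdf2l1, Manf, Creld2 and Hyou1), Ssr1, Xbp1 and Asns. A further 6 passed in 1 to 3 comparisons and 18 in none. The arrays of the group and of Control did not overlap, with the group higher, for 4 of 35 genes in siTNF-OMe-P (2.50% of all probe sets), 3 in siTNF-OMe (4.56%), 1 in siTNF (2.29%) and 6 in scrambled (1.82%). All 6 in scrambled were chaperones. Level matters for these shares, since most of the 35 genes are bright: among the 4662 probe sets with a mean of at least 10, 18.5% rose and 6.44% fell in scrambled over Control, with a median difference of 0.09, against a median of -0.03 over all probe sets and 0.34 over the 35 genes.

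Spread of the arrays moved with these values. The mean of the 15 chaperones was 11.22 on the 1 narrow scrambled array and 11.41 on the other 6, against 10.52 on the 4 narrow Control arrays and 11.21 on the other 5. For the 8 degradation genes it was 9.57 on the narrow and 9.67 on the other scrambled arrays, against 9.11 and 9.81 in Control. For the 6 PERK arm genes it was 9.16 and 9.24 in scrambled, against 8.67 and 9.20 in Control. On the arrays that were not narrow, the degradation genes thus averaged 0.14 lower in scrambled than in Control and the chaperones 0.20 higher. Whether the narrow spread comes from the tissue or from the RNA was not tested.

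**Figure D3:**
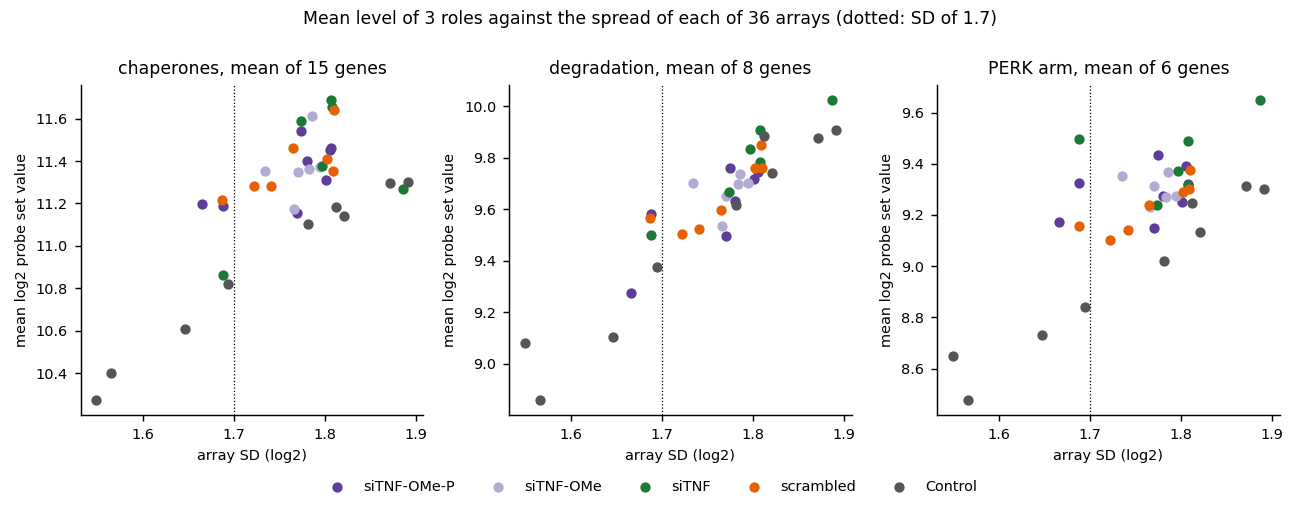
Mean log2 probe set value of 15 chaperones, 8 degradation genes and 6 PERK arm genes (vertical axes) against the SD of all values on the array (horizontal axes), 1 point per array, coloured by group; the dotted line marks an SD of 1.7. Of the arrays left of the line, the 4 Control arrays have the lowest chaperone and PERK arm means, and right of it the degradation means of Control lie among or above those of the siRNA-dosed groups.

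Without the 8 narrow arrays, 6 of the 35 genes rose in scrambled over Control and 2 fell, where 28.0% of all probe sets rose and 21.9% fell. Among the 4662 bright probe sets 19.8% rose and 35.4% fell there, with a median of -0.07. The 6 were chaperones: Hspa5 (0.41 ± 0.11), Creld2 (0.47 ± 0.16), Sdf2l1 (0.42 ± 0.10), Hyou1 (0.41 ± 0.17), Calr (0.29 ± 0.07) and Manf (0.29 ± 0.09), with limma adjusted p values of 0.00390, 0.0241, 0.00196, 0.0443, 0.00205 and 0.0120. The 2 that fell were degradation genes, Herpud1 by 0.46 ± 0.13 and Edem2 by 0.21 ± 0.07 (limma adjusted p = 0.00848 and 0.0235). The median was 0.19 for the chaperones, -0.10 for the degradation genes and 0.02 for the PERK arm. Xbp1 and Asns differed by 0.22 and 0.26 there and did not pass. In siTNF-OMe-P, siTNF-OMe and siTNF over Control without these arrays, 7, 8 and 11 genes rose and 3, 3 and 0 fell. Of all probe sets, 26.1%, 29.9% and 8.62% rose and 21.9%, 24.1% and 12.2% fell in those 3 comparisons, and among the bright probe sets more fell than rose in each, with medians of -0.06, -0.08 and -0.01. The 3 that fell in siTNF-OMe-P and in siTNF-OMe were Herpud1, Edem2 and Ern1. Xbp1 rose in these 3, by 0.43, 0.44 and 0.45. Hspa5, Calr, Sdf2l1, Manf and Creld2 rose in all 4 comparisons with and without the narrow arrays.

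**Figure D4:**
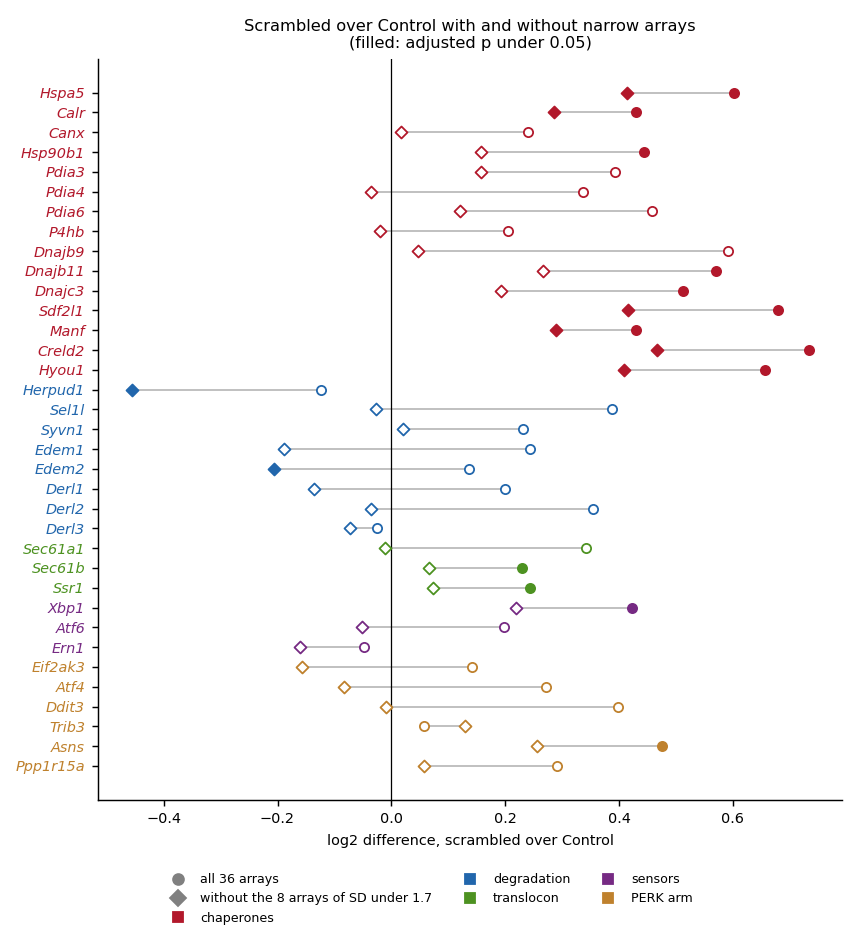
Log2 differences of scrambled over Control (horizontal axis) for the 35 genes, from all 36 arrays (circles) and without the 8 narrow arrays (diamonds), coloured by role and filled where adjusted p was under 0.05. Hspa5, Calr, Sdf2l1, Manf, Creld2 and Hyou1 stay filled right of 0, while Herpud1 and Edem2 are filled left of 0 without the narrow arrays.

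With array SD as a term in the fit instead, 22 genes rose in scrambled over Control, 14 of them chaperones and 2 degradation genes (12.9% of all probe sets rose). Within the hybridization batches, each with 3 or 4 scrambled and 4 or 5 Control arrays, the median chaperone difference was 0.41 in the first and 0.54 in the second, and 0 and 7 of 15 rose, where 1.52% and 2.73% of all probe sets did. Hspa5 differed by 0.62 and 0.61 in the 2 batches (limma adjusted p = 0.0955 and 0.00595). The degradation genes had medians of 0.04 and 0.32.

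No gene of the 35 passed in any comparison among the siRNA-dosed groups. The 3 TNF siRNAs were set against scrambled one by one and as a mean, and against each other in 3 pairs, and in each of these 7 comparisons limma called 0 of 35 genes and 0% of all probe sets. At an unadjusted p under 0.05 there were 836, 455, 311 and 525 of 28853 probe sets for siTNF-OMe-P, siTNF-OMe, siTNF and their mean over scrambled. Over the 35 genes the median differences were -0.04, 0.01, 0.05 and 0.01 in that order.

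**Figure D5:**
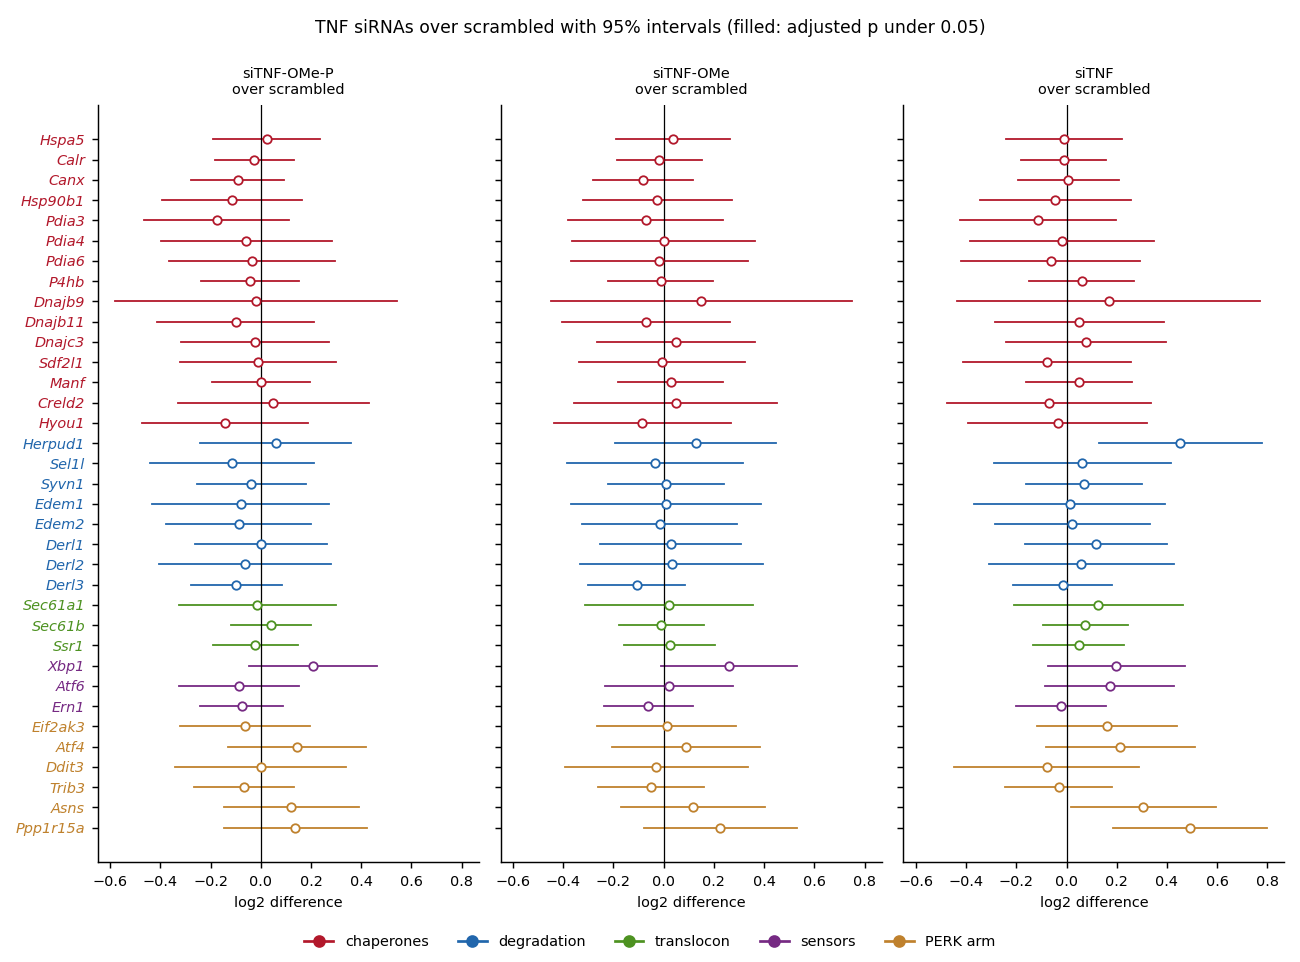
Log2 differences of the 35 genes from scrambled (horizontal axis, 1 panel per TNF siRNA), with 95% intervals as lines, coloured by role; no point is filled, since none had an adjusted p under 0.05. The differences run from -0.18 to 0.49, the highest being Ppp1r15a in siTNF.

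The smallest unadjusted p values in siTNF over scrambled were those of Ppp1r15a (0.49 ± 0.15, 95% interval 0.18 to 0.80), Herpud1 (0.45 ± 0.16, interval 0.13 to 0.78) and Asns (0.31 ± 0.14, interval 0.02 to 0.60), with limma adjusted p of 1.00 each. The Ppp1r15a and Herpud1 values include siTNF replicate 4, at 9.43 and 11.88. In siTNF-OMe over scrambled they were Xbp1 (0.26 ± 0.13, interval -0.01 to 0.53), Ppp1r15a (0.23 ± 0.15) and Derl3 (-0.11 ± 0.10). In siTNF-OMe-P over scrambled they were Xbp1 (0.21 ± 0.12, interval -0.05 to 0.46), Pdia3 (-0.18 ± 0.14) and Derl3 (-0.10 ± 0.09). For the mean of the 3 over scrambled they were Ppp1r15a (0.28 ± 0.12), Xbp1 (0.22 ± 0.11) and Herpud1 (0.21 ± 0.13).

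The 3 siRNAs against Tnf differ in chemical modification, propanediol with O-methyl, O-methyl, and none. In siTNF-OMe-P over siTNF-OMe the 35 differences ran from -0.17 to 0.06, with Atf6 (-0.11 ± 0.12), Pdia3 (-0.10 ± 0.15) and Hsp90b1 (-0.09 ± 0.14) at the smallest p, and 74 of 28853 probe sets had an unadjusted p under 0.05. In siTNF-OMe-P over siTNF they ran from -0.39 to 0.12, with Herpud1 (-0.39 ± 0.15, interval -0.71 to -0.08), Ppp1r15a (-0.35 ± 0.15, interval -0.65 to -0.06) and Atf6 (-0.26 ± 0.12) first, at 1002 probe sets. In siTNF-OMe over siTNF they ran from -0.33 to 0.12, with Herpud1 (-0.33 ± 0.16, interval -0.66 to 0.01), Ppp1r15a (-0.27 ± 0.16) and Asns (-0.19 ± 0.15) first, at 494 probe sets. Adjusted over the 3 pairs together, 0 probe sets passed and the smallest adjusted p was 1. The intervals over the 35 genes and 3 pairs reach from -0.77 to 0.61, so differences of the size seen against Control are not shown to be absent.

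Nor did any of the 35 pass for a slope on MPO activity within the 4 siRNA-dosed groups. Among these 27 arrays the slopes on log2 MPO ran from -0.04 to 0.07 per doubling, 0 of 35 genes and 0% of all probe sets passed, and 984 probe sets had an unadjusted p under 0.05. The smallest p values belonged to Asns (0.06 ± 0.04), Ppp1r15a (0.07 ± 0.04) and Edem2 (-0.04 ± 0.03). Of 10 neutrophil markers 0 passed either, although all 10 slopes were above 0, with a median of 0.28. The test therefore cannot show that a gene does not follow MPO.

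How the genes varied together from array to array is given as a description. After group and batch means were removed, the median Pearson r over the 36 arrays was 0.86 over the 105 pairs of chaperones, 0.82 over the 28 pairs of degradation genes and 0.49 over the 15 pairs of PERK arm genes. Between chaperones and degradation genes it was 0.72, between chaperones and PERK arm genes 0.60, and between degradation and PERK arm genes 0.56. Before array SD was removed, the PERK arm genes thus varied together less with each other than with the chaperones or the degradation genes. All genes of an array share its spread: with array SD removed as well, the medians in the order given were 0.68, 0.38, 0.30, 0.30, 0.13 and 0.27. The order for the PERK arm then turned, at 0.30 among its own genes against 0.13 with chaperones and 0.27 with degradation genes.

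The wider pathway was read from lists of genes outside the 35. Over all probe sets 7.27% rose and 4.45% fell in scrambled over Control. For siTNF-OMe-P, siTNF-OMe and siTNF over Control these shares were 9.35, 9.01 and 9.09% risen and 6.58, 5.81 and 4.71% fallen. In scrambled over Control 1 of 25 further folding genes rose and 0 fell (Fkbp7, a peptidyl-prolyl isomerase, by 0.55 ± 0.17), with a median of 0.16. In further degradation genes 1 of 18 rose and 0 fell (Ube2g2, a ubiquitin-conjugating enzyme, by 0.43 ± 0.13; median 0.15), and in further translocation genes 1 of 20 rose and 0 fell (Srprb, of the signal recognition particle receptor, by 0.37 ± 0.09; median 0.19). Of 26 integrated stress response genes 3 rose and 1 fell (median 0.12): the tRNA synthetase gene Wars1, which interferon gamma also induces, by 1.09 ± 0.19, and the stress protein gene Nupr1 by 0.79 ± 0.10, while Cth, of cysteine synthesis, fell by 0.84 ± 0.17. Of 12 further regulators 3 rose and 2 fell (median 0.12). Creb3l2 and Creb3, membrane-bound transcription factors related to ATF6, rose by 0.39 ± 0.11 and 0.35 ± 0.10, and Creb3l1 and Ern2, the IRE1 form of mucus-secreting epithelium, fell by 0.57 ± 0.16 and 0.48 ± 0.14. Of 14 cytosolic and mitochondrial chaperones 5 rose and 0 fell (median 0.28), with Hspb1 (Hsp25) up by 1.06 ± 0.13 and Hspa1a (Hsp70) by 0.84 ± 0.13. In siTNF-OMe-P, siTNF-OMe and siTNF over Control 5, 5 and 4 of the further folding genes rose and 1, 1 and 0 fell. Of the integrated stress genes 9, 5 and 8 rose and 1 fell in each. Further degradation genes gave 1, 1 and 3 rises and translocation genes 2, 3 and 2, with 0 falls. The cytosolic and mitochondrial chaperones gave 7, 7 and 5 rises and 0 falls. The further regulators gave 3, 4 and 3 rises and 3, 3 and 2 falls.

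Marker lists of cell types moved in scrambled over Control as well. All 12 macrophage and monocyte markers rose in scrambled over Control (Cd68 by 1.87 ± 0.12, Fcgr3 by 1.68 ± 0.16), and their mean level ran from 10.31 to 10.95 in scrambled and from 8.77 to 9.71 in Control. Of the 10 neutrophil markers 3 rose, S100a8 by 2.04 ± 0.45 and S100a9 by 1.78 ± 0.39 among them (7.90 to 9.29 in scrambled, 7.32 to 7.86 in Control). All 8 smooth muscle markers rose (Des by 0.81 ± 0.12, Cnn1 by 0.69 ± 0.10; 12.23 to 12.49 against 11.21 to 12.26), as did 4 of 8 fibroblast markers (Pdgfra by 0.77 ± 0.12, Dcn by 0.54 ± 0.13; 10.64 to 11.18 against 9.88 to 10.74). All 8 dividing cell markers fell (7.44 to 7.87 against 7.98 to 9.47): Top2a fell by 1.46 ± 0.22 and Ccnb2 fell by 1.45 ± 0.14.

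Secretory cells were read the same way, although the plasma cell list also holds B cell markers and so does not read plasma cells alone. Of 10 plasma and B cell markers 4 fell and 1 rose (Cd79a and Ms4a1 fell by 0.49 ± 0.12 and 0.47 ± 0.12, and Prdm1 rose by 0.50 ± 0.13; 8.07 to 8.23 in scrambled, 8.15 to 8.53 in Control). Of 9 goblet markers 5 rose and 1 fell (Muc2 rose by 0.47 ± 0.08, Spink4 by 0.35 ± 0.05, and Ern2 fell, as given; 11.85 to 12.18 against 11.57 to 12.16). Of 12 epithelial markers 1 rose, Krt20 by 0.40 ± 0.10 (11.74 to 12.12 against 11.46 to 12.09), and 0 of 8 squamous markers passed (7.18 to 7.45 against 6.92 to 7.72). Other groups gave other counts. In siTNF-OMe-P, siTNF-OMe and siTNF over Control 4, 5 and 0 of 8 squamous markers rose and 0 fell (medians 1.44, 1.72 and 0.15). Of 10 neutrophil markers 6 rose and 0 fell in each of these 3 comparisons. Of 9 goblet markers 1, 3 and 4 rose there and 2 fell in each. The part of these cell types in the chaperone differences was not tested.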

How the data were processed

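Distal colon RNA of 36 mice was put on 1 array each; per the labels' protocols RNeasy was used to isolate it and 25 ng to amplify it with biotin, over 3 amplification batches and 2 batches of hybridization. The authors deposited log2 signals per probe set, from Partek and RMA per the submitters' processing notes, which give no versions. Among 28853 probe sets, 21789 name 1 gene, 1621 name several and 5443 name no gene. None was filtered out.

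The comparisons used limma 3.58.1 under R 4.3.3 (group, amplification and hybridization batch on all 36 arrays, moderation with a trend, 28 residual degrees of freedom), two-sided, with Benjamini-Hochberg adjustment over all probe sets and a threshold of 0.05; the MPO slope used 27 arrays and a group term. The fit was tested on simulated data. Nothing says that arrays share animals. Signal over background was not used here.

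The 35 genes, the other lists, the SD limit of 1.7 and the alternatives were chosen with earlier results of these data known. Each of the 35 is named in scrambled over Control; full values go to up to 3 called genes per role and comparison with the largest difference, or the 3 smallest p values where fewer were called, and other lists give up to 2 risen and 2 fallen genes. The remark on the SE of Dnajb9, the single sites and Calr, Manf and Hsp90b1 were added after values were seen. Promoters are RefSeq's (GRCm38.p6). Python 3.11.15, NumPy 2.4.6, pandas 2.3.3 and matplotlib 3.10.9 were used.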

Additional observations from a re-analysis of the deposited data

Results flagged for a closer look

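Among 175 sets of values (35 genes in 5 groups), 13 had an array far from the rest of its group, by a gap test that flags about 1 in 20 by chance. The highest array stood apart for Herpud1 in siTNF replicate 4 (11.88, the nearest at 10.96), Dnajb11 in siTNF-OMe replicate 6 (11.00, nearest 10.62), Trib3 in scrambled replicate 5 (7.81, nearest 7.59), and Calr and Pdia6 in scrambled replicate 2 (12.23 and 11.79, nearest 12.10 and 11.50). The lowest array stood apart for 4 genes in siTNF replicate 3, a narrow array of SD 1.69: Pdia3 (11.37, nearest 12.02), Sdf2l1 (9.42, nearest 10.34), Edem2 (9.59, nearest 10.13) and Ern1 (8.82, nearest 9.18). It did so for Herpud1 (10.13, nearest 10.53) and Eif2ak3 (9.04, nearest 9.33) in siTNF-OMe-P replicate 8, a narrow array of SD 1.67, and for Canx (11.93, nearest 12.19) and Atf6 (9.68, nearest 9.86) in siTNF-OMe replicate 2, whose SD was 1.77.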

How the results depend on the processing

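Rises and falls counted together, the number of the 35 genes called did not move by more than 1.5 times except as given here. The cause was not tested for any of the changes. Within hybridization batch 1 the count was 0 for any difference among the 5 groups and for each of the 4 comparisons with Control, and within batch 2 it was 9 for siTNF-OMe-P and 8 for scrambled over Control. With array SD as a term it was 23 for any difference, 22 for siTNF-OMe-P, 23 for siTNF-OMe and 22 for scrambled over Control. With only the compared groups fitted it was 9 for siTNF-OMe-P, 5 for siTNF and 8 for scrambled over Control. Without the 8 arrays of SD under 1.7 it was 8 for scrambled over Control, of which 2 were lower. Rises alone dropped by more than 1.5 times there in siTNF-OMe-P and siTNF-OMe over Control too, where genes that fell made up the count. Array weights ranged from 0.0587 to 5.49.

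Leaving out 1 array at a time gave 11 to 15 genes for any difference, 12 to 16 for siTNF-OMe-P, 8 to 17 for siTNF-OMe, 12 to 24 for siTNF and 9 to 17 for scrambled over Control, and 0 to 0 for the other comparisons and the slope. The 8 came without siTNF-OMe replicate 6 and the 24 without Control replicate 7. Replicate numbers were not used to pair the arrays in the main fit. After group means were removed, 64 same-numbered pairs across groups correlated at -0.697 to 0.868. Their median was 0.124, against -0.00563 for pairs of other numbers. With the replicate block in place of the batch terms, the counts over Control were 15 for siTNF-OMe-P, 8 for siTNF-OMe, 14 for siTNF and 10 for scrambled.

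The sign of some scrambled over Control differences turned. With array weights it did for Pdia4 (-0.0499), P4hb (-0.0229), Edem1 (-0.153), Edem2 (-0.187), Derl1 (-0.125), Sec61a1 (-0.0215), Atf6 (-0.0393), Eif2ak3 (-0.132) and Atf4 (-0.0433). Without the arrays of SD under 1.7 it did for Pdia4 (-0.036), P4hb (-0.020), Sel1l (-0.0271), Edem1 (-0.189), Edem2 (-0.206), Derl1 (-0.136), Derl2 (-0.0354), Sec61a1 (-0.012), Atf6 (-0.0519), Eif2ak3 (-0.157), Atf4 (-0.083) and Ddit3 (-0.0101). With those arrays left out and the rest quantile-normalized, a setting chosen after seeing the data, it did for Edem1 (-0.0903), Edem2 (-0.108), Derl1 (-0.0163), Eif2ak3 (-0.0537) and Atf4 (-0.00901). Within hybridization batch 1 it did for Edem2 (-0.0742), Atf6 (-0.0186) and Eif2ak3 (-0.0502), and within batch 2 for Derl3 (0.0862) and Ern1 (0.0656). Derl3 also turned with quantile normalization (0.0161) and without Control replicate 4, Control replicate 7 or scrambled replicate 1 (0.0135, 0.0133 and 0.0224), and leaving out 1 array gave it -0.0607 to 0.0224.

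Elsewhere, within batch 1, Ppp1r15a turned for siTNF-OMe over scrambled (-0.00942), and Pdia3 (0.0843) and Hsp90b1 (0.023) turned for siTNF-OMe-P over siTNF-OMe. Pdia3 was at 0.00034 in that comparison without the arrays of SD under 1.7. The MPO slope of Edem2 turned within batch 1 (0.0291), with the replicate block (0.00639), without the arrays of SD under 1.7 (0.0219), and with those left out and quantile normalization (0.0109). Precision is limited by the number of arrays, and the log2 table holds no detection values.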
